A study of Homo sapiens with 6 samples.

Results

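The reticulons are a family of 4 human genes, RTN1, RTN2, RTN3 and RTN4, and they were followed here in MDA-MB-231 breast cancer cells that carried a control hairpin or a hairpin against the lactate receptor GPR81. All 4 genes were present among the 26255 gene symbols of the expression table, and all 4 passed the filter on low values, which left 14349 genes for testing. The family was chosen by a measured value: RTN1 was taken up for its rise in this same contrast, so its values are described without a test. RTN2, RTN3 and RTN4 entered by family name alone.

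MDA-MB-231 is an established human line derived from a breast cancer without estrogen receptor. Libraries were prepared from total RNA with a stranded mRNA kit (TruSeq). The 6 libraries were 3 from cells with the control hairpin (shNT) and 3 from cells with a GPR81-specific hairpin (shGPR81). Both kinds of cells had been infected with lentiviral particles and selected with puromycin, so the controls share the vector and the drug. GPR81 is the product of the gene HCAR1, a receptor on the cell membrane that senses lactate and signals through an inhibitory G protein. The study made more than 1 GPR81 hairpin, and the labels do not name the one that was sequenced, so effects of the receptor, of a single hairpin and of a selected line cannot be told apart. Nothing states that libraries of a group came from separate cultures, and the p-values below therefore measure only the spread between these libraries.

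Reticulons are membrane proteins of the endoplasmic reticulum (ER). Their shared C-terminal part, the reticulon homology domain, holds a pair of long hydrophobic hairpins that wedge into the ER membrane and bend it into tubules. RTN1 was first described as a neuroendocrine-specific protein and is abundant in neurons, RTN2 is linked to hereditary spastic paraplegia, RTN3 is an ER-phagy receptor that also binds the protease BACE1, and RTN4 is Nogo, whose longest form inhibits the outgrowth of neurites.

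The stretch of coding sequence that the family shares shows both how alike the 4 genes are and that their reads can be told apart. The 60 bases below are an aligned part of the homology domain from the longest coding transcript of each gene, written 5′ to 3′ on the coding strand and taken from the GENCODE transcripts. Capitals mark the 31 of 60 bases that are identical in all 4 genes.
RTN1 (RTN1-201, coding bases 2092 to 2151): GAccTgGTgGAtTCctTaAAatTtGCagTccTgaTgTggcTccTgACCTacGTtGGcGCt
RTN2 (RTN2-201, coding bases 1360 to 1419): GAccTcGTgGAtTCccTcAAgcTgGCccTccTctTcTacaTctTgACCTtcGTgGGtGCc
RTN3 (RTN3-206, coding bases 2857 to 2916): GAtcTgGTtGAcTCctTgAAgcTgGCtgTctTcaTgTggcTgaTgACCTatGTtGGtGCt
RTN4 (RTN4-202, coding bases 3340 to 3399): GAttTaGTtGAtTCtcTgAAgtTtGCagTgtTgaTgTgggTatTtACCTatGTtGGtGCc
In this window RTN2 matched RTN1 at 41 bases, RTN3 at 46 and RTN4 at 43. Over the last 570 coding bases, identity at aligned bases ran from 62.0% between RTN2 and RTN4 to 70.1% between RTN3 and RTN4, and RTN1 lay between 66.1% and 67.8% from each of the others. No stretch of 75 bases, the length of the reads, was shared between any pair of reticulons. Of the 6155 such stretches in RTN1 transcripts, 0 occurred in transcripts of another gene, and the same held for RTN2 (0 of 3709) and RTN4 (0 of 6919). RTN3 was the exception, with 272 of 6518 stretches (4.17%) also present in its pseudogene RTN3P1 or in 1 unnamed gene, so a small part of its reads could have been split.

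The 4 genes lie on 4 chromosomes (GRCh37 coordinates of GENCODE). RTN1 spans chr14:60062694-60337494 on the minus strand, RTN2 chr19:45988552-46000313 on the minus strand, RTN3 chr11:63448918-63527363 on the plus strand and RTN4 chr2:55199323-55339757 on the minus strand. RTN1 has a long form that starts at the outer end of the gene (RTN1-201, 2328 coding bases in 9 exons) and short forms that start far inside it, near position 60097532 (RTN1-202, 624 coding bases, and RTN1-203, 579 coding bases). The expression values are 1 number per gene, FPKM (fragment counts scaled by transcript length and by library size), so the forms of a reticulon were not separated. FPKM is scaled by length, and levels of different genes can be set side by side.

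In shNT cells the reticulons were expressed over a range of more than 3 orders of magnitude, with RTN4 highest and RTN1 near the lower limit. The order RTN4, RTN3, RTN2, RTN1 was the same in all 6 libraries, and in each group every library's value of a gene lay above every library's value of the next gene in the order. RTN4 carried 75.2% of the summed reticulon FPKM in shNT cells and 75.7% in shGPR81 cells, RTN3 carried 21.7% and 20.2%, and RTN2 carried 3.03% and 3.70%. RTN1 carried 0.0343% and 0.415%. Ranked among all symbols by mean FPKM, RTN4 stood at 248 in shNT cells and RTN3 at 987, against 5580 for RTN2 and 13940 for RTN1.

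**Figure D1:**
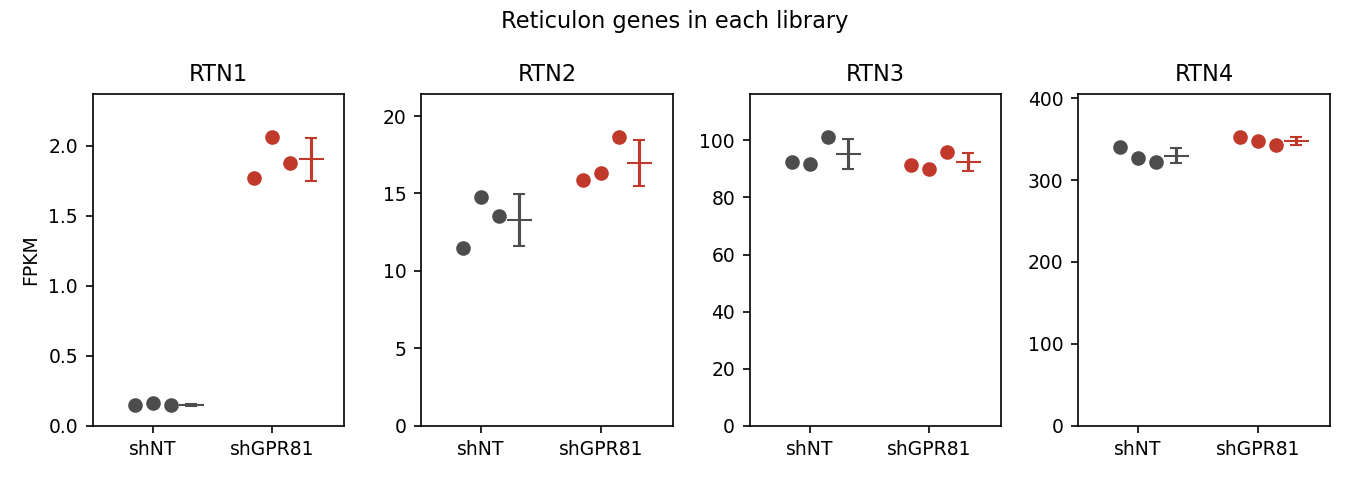
FPKM of RTN1, RTN2, RTN3 and RTN4 in the 3 shNT (grey) and 3 shGPR81 (red) libraries, each panel with its own linear axis from 0. Points are libraries, in the order of their replicate numbers, and the bar beside them is the mean ± SD. RTN1 separates fully (0.145 to 0.160 against 1.77 to 2.07), RTN2 and RTN4 separate by small gaps, and the RTN3 groups overlap.

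RTN1, the neuroendocrine-specific reticulon, was the member with the large difference. It was at 0.146, 0.160 and 0.145 FPKM in shNT replicates 1, 2 and 3, and at 1.77, 2.07 and 1.88 FPKM in shGPR81 replicates 1, 2 and 3. The 3 shNT libraries were all low and close together, the 3 libraries labelled shGPR81 were all higher, and the groups did not overlap. The means were 0.150 ± 0.00818 and 1.90 ± 0.151 FPKM (SD, n = 3 each), a ratio of 12.7. On the log2(FPKM + 0.1) scale, which understates the change of a gene this low, the difference was 3.0 (SE 0.16, 95% interval 2.61 to 3.38). RTN1 moved from rank 13940 to rank 10816 among all symbols, so even in shGPR81 cells it stayed a low gene. The difference of its means, 1.75 FPKM, was below that of RTN2 (3.70 FPKM) and of RTN4 (17.9 FPKM), neither of which passed the test given with their values.

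Because RTN1 was picked for this rise, its place in the order of rises is given only to show the choice. The order was taken over genes called higher, which had both an adjusted p below 0.05 in limma and a change of over 1.5-fold. There were 137 of them, 0.955% of those tested, and 103 had a mean of 1 FPKM or above and no overlap of groups. RTN1 was the 2nd by log2 difference, a place that the choice itself fixed. SNORA9, a small nucleolar RNA listed at 0 in every shNT library, came before it with a fitted value that depends on the added 0.1 FPKM. G0S2, an inhibitor of the triglyceride lipase ATGL, came after it at 2.23. The 5th gene, PINLYP, had a difference of 1.39 and the 6th, SAMSN1, also 1.39.

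Few reads stood behind the RTN1 values in shNT cells. The files give no read counts, but in 4006 of 15931 genes all 6 values could be written as whole numbers of 1 common step (tolerance 0.0001 of the value), and these whole numbers were taken as reads. With transcript lengths, the 688 of these genes with 1 transcript gave medians of 12409568 to 13286929 reads per library, with relative depths from 1 to 1.07. RTN1 itself, like the other reticulons, did not fall on whole steps, so its reads were only estimated. With its shortest coding transcript (1609 bases), the shNT libraries had about 2.91 to 3.27 reads each and the shGPR81 libraries 37.8 to 43.6. With its longest (3239 bases), they had about 5.84 to 6.57 and 76.1 to 87.8. The sums, rounded to 9 against 121 and to 18 against 244 reads, gave a depth-corrected ratio of 12.8 (exact 95% interval 6.51 to 28.6) or 12.9 (7.98 to 22.1). These intervals cover counting error only. The coefficient of variation of RTN1 between shNT libraries was 5.45%, while counting 3 or 6 reads alone would give 57.7% or 40.8%, so the small SD of the shNT group understates its error.

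RTN2, the reticulon mutated in a form of spastic paraplegia, was at 11.5, 14.8 and 13.5 FPKM in shNT replicates 1 to 3 and at 15.9, 16.3 and 18.7 FPKM in shGPR81 replicates 1 to 3. Every shGPR81 library was above every shNT library by a narrow gap, 14.8 against 15.9 FPKM. The means were 13.3 ± 1.67 and 17.0 ± 1.49 FPKM (SD, n = 3 each), a ratio of 1.28. The log2 difference was 0.36 (SE 0.11, 95% interval 0.11 to 0.61), and it did not pass the threshold after adjustment over all tested genes (limma with Benjamini-Hochberg adjustment, adjusted p = 0.118). The exact two-sided permutation test gave p = 0.1, the smallest value that 3 against 3 libraries allow.

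RTN4, or Nogo, the most abundant reticulon of these cells, was at 340, 327 and 322 FPKM in shNT replicates 1 to 3 and at 353, 347 and 343 FPKM in shGPR81 replicates 1 to 3. The groups did not overlap, but the gap between the highest shNT and the lowest shGPR81 library was small beside the levels. The means were 330 ± 9.04 and 347 ± 5.05 FPKM (SD, n = 3 each), a ratio of 1.05 with a log2 difference of 0.08 (SE 0.05, 95% interval -0.03 to 0.18). The adjusted p from limma was 0.431 and the exact two-sided permutation p was 0.1. The interval reaches a ratio of at most 1.14.

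RTN3, the ER-phagy receptor of the family, was at 92.5, 91.9 and 101 FPKM in shNT replicates 1 to 3 and at 91.5, 89.8 and 96.1 FPKM in shGPR81 replicates 1 to 3. The groups overlapped, with shNT replicate 3 the highest of all libraries. The means were 95.2 ± 5.27 and 92.5 ± 3.25 FPKM (SD, n = 3 each), a ratio of 0.971 with a log2 difference of -0.04 (SE 0.06, 95% interval -0.17 to 0.09). The adjusted p from limma was 0.761 and the exact two-sided permutation p was 0.5. The sign of this small difference turned to 0.0042 when shNT replicate 3 was left out.

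Of the members that were not chosen by their values, 0 of 3 were called in either direction, where 0.955% of all tested genes were called higher and 1.59% lower. At an unadjusted p under 0.05 from limma, 1 of 3 passed (RTN2), beside 19.5% of all tested genes. RTN2 and RTN4 had groups without overlap, 2 of 3, which 25.6% of all tested genes had in one direction or the other. The median log2 difference of all tested genes was 0.0081. Summed over the family, reticulon FPKM was 444, 433 and 437 in shNT replicates 1 to 3 and 462, 455 and 459 in shGPR81 replicates 1 to 3, means of 438 ± 5.26 and 459 ± 3.32 (SD, n = 3 each). The sums did not overlap, and most of the difference in FPKM came from RTN4.

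**Figure D2:**
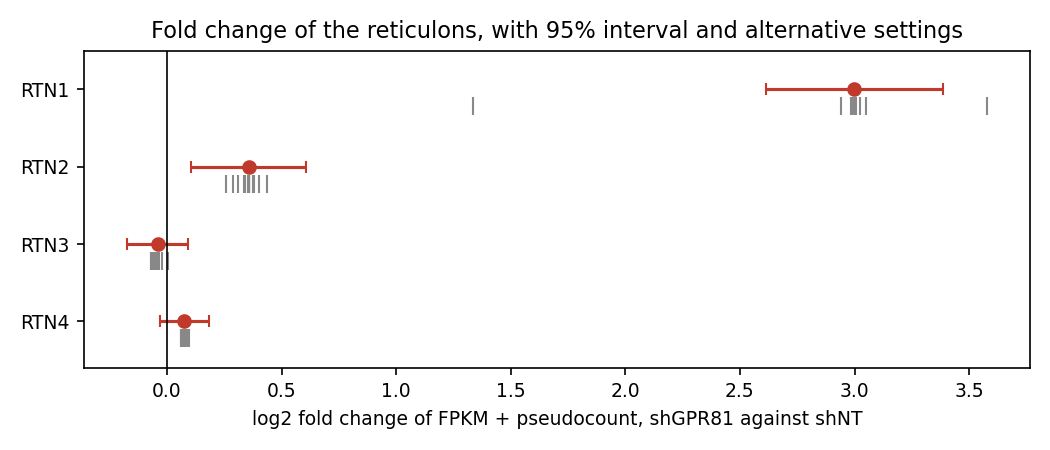
Log2 fold change of each reticulon, shGPR81 against shNT, on the log2(FPKM + pseudocount) scale. Red points with bars are the estimate and its 95% interval with a pseudocount of 0.1, and grey ticks below them are the same value under the alternative settings. RTN1 stands near 3.0, with 1.33 and 3.58 under pseudocounts of 1 and 0.01, and the other members lie between -0.07 and 0.44 in every setting.

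The proportions between the members followed these differences. RTN4 was 3.18 to 3.68 times RTN3 in the shNT libraries and 3.57 to 3.86 times in the shGPR81 libraries, ranges that overlap. RTN3 was 6.21 to 8.06 times RTN2 in shNT and 5.15 to 5.76 times in shGPR81. RTN2 was 78.7 to 93.2 times RTN1 in shNT and 7.91 to 9.94 times in shGPR81, and RTN4 was 2046 to 2331 times RTN1 in shNT and 168 to 200 times in shGPR81.

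The targeted gene itself, HCAR1, overlapped between the groups. It was at 0.968, 1.02 and 1.36 FPKM in shNT replicates 1 to 3 and at 0.978, 0.891 and 0.396 FPKM in shGPR81 replicates 1 to 3, with a log2 difference of -0.57 (SE 0.31, limma adjusted p = 0.38). Only shGPR81 replicate 3 was far below the shNT range. HCAR1 fell on whole read steps, with 37, 40 and 52 reads in shNT and 40, 36 and 16 in shGPR81, a depth-corrected ratio of 0.677 (exact 95% interval 0.513 to 0.892, counting error only). The study itself reported significantly reduced GPR81 in its shGPR81 lines by RT-qPCR and western blotting, which are measures other than FPKM. The part of the HCAR1 level in the RTN1 values was not tested.

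Markers of the line were looked up to check the label. Vimentin (VIM), CD44, AXL, CAV1, EGFR, LGALS1, KRT18 and TGFBI are known to be expressed in MDA-MB-231. All were tested, which needs only 0.1 FPKM in 3 libraries and does not by itself check the label. By level, VIM was the highest of them, at 3211 to 4443 FPKM. EGFR was the lowest, at 37.5 ± 2.01 FPKM in shNT and 35.8 ± 2.22 in shGPR81 (SD, n = 3 each). The estrogen and progesterone receptors ESR1 and PGR and E-cadherin (CDH1) were listed at 0 in every library. The other markers known to be low in this line were all tested, ERBB2 at 11.2 ± 0.591 and 12 ± 0.625 FPKM and EPCAM at 6.16 ± 0.861 and 5.60 ± 0.115 FPKM (SD, n = 3 each) being the highest. Of all these markers, TGFBI was lower in shGPR81 cells (log2 difference -0.38, limma adjusted p = 0.00956, and 0.0522, 0.0621 and 0.0585 without shNT replicate 2, shGPR81 replicate 1 and shGPR81 replicate 2). TFF3, a secreted trefoil peptide of luminal cells, fell from 3.68 ± 0.532 to 0.591 ± 0.0915 FPKM (SD, n = 3 each, log2 difference -2.45, limma adjusted p = 0.000657).

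RTN1 is best known from neurons and endocrine cells, so their markers were set beside it. Of 24 neuroendocrine and neuronal markers, 13 were listed at 0 in every library, among them chromogranins A and B (CHGA, CHGB), INSM1 and UCHL1, and 17 were under 0.1 FPKM in every library. Of the 7 tested, 0 passed an adjusted p under 0.05 (limma) and 2 an unadjusted one. Of all tested genes, 2.06% passed the adjusted threshold higher and 3.07% lower, and 19.5% the unadjusted one. The median log2 difference of the 7 was -0.14 beside 0.0081 for all tested genes. The summed FPKM of the list, almost all of it the broadly expressed tubulin TUBB3 and enolase ENO2, ran from 81.1 to 101 in shNT and from 80.7 to 85.2 in shGPR81. The synaptic vesicle protein SYP was estimated at 10, 3 and 5 reads in shNT and at 6, 3 and 1 in shGPR81. The vesicle calcium sensor SYT1 had 0.741, 0.643 and 0.724 FPKM in shNT and 0.918, 1.11 and 1.29 in shGPR81. Its groups did not overlap, and its adjusted p was 0.113 (limma). STMN3 went the other way, also without overlap. It was at 3.52, 3.96 and 3.55 FPKM in shNT and 2.75, 2.85 and 3.45 in shGPR81 (limma adjusted p = 0.245). Of the 7 tested markers, 2 had a log2 difference above 0 and 5 below.

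RTN1 is also known from dendritic cells. Of 12 myeloid and dendritic markers, 6 were listed at 0 in every library, 8 were under 0.1 FPKM in every library and 4 were tested. Of these 4, 0 passed an adjusted p under 0.05 (limma) and 2 an unadjusted one. The shares of all tested genes were 2.06% higher and 3.07% lower on the adjusted p and 19.5% on the unadjusted one. The summed FPKM of the list was 79.9 to 104 in shNT and 113 to 132 in shGPR81, nearly all of it the lysosomal protein CD68, which many cell types express (88.9 ± 11.3 against 118 ± 9.83 FPKM, SD, n = 3 each, limma adjusted p = 0.0691). CD14, a co-receptor for bacterial lipopolysaccharide, was at 2.24, 4.29 and 3.62 FPKM in shNT and 1.74, 1.14 and 1.58 in shGPR81 (limma adjusted p = 0.0562). These libraries are bulk RNA, in which a change in the number of cells of a kind and a change in the RNA per cell cannot be told apart.

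The tubular ER shaping proteins are the functional partners of the reticulons: atlastins fuse tubules, REEP proteins and ARL6IP1 bend membrane as reticulons do, and spastin (SPAST) ties tubules to microtubules. All 20 genes of this list were tested, and 0 of 20 passed an adjusted p under 0.05 (limma) in either direction, where 2.06% of all tested genes passed it higher and 3.07% lower. At an unadjusted p under 0.05, 2 of 20 passed, beside 19.5% of all tested genes. The median log2 difference of the 20 was 0.0060, with 11 above 0 and 9 below. The members highest in level were ARL6IP1, at 168, 155 and 170 FPKM in shNT and 182, 190 and 189 in shGPR81 (log2 difference 0.19, adjusted p = 0.0991), and RAB10, a small GTPase of ER dynamics, at 64.1 ± 1.14 and 60.2 ± 1.01 FPKM (SD, n = 3 each, log2 difference -0.09, adjusted p = 0.324). REEP5 followed at 57.6 ± 2.41 and 58.1 ± 1.30 FPKM. The atlastin ATL3 was at 18.7 ± 1.12 and 20.6 ± 0.19 FPKM, with a log2 difference of 0.14 and an adjusted p of 0.254. The widest difference, -0.59 for REEP1, belonged to a gene below 0.4 FPKM and had an adjusted p of 0.344.

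Sheets are the other form of the ER, studded with ribosomes and kept open by proteins such as CKAP4. All 12 genes of the sheet list were tested, 0 passed higher and 2 passed lower at an adjusted p under 0.05 (limma), neither with a fold change above 1.5, beside 2.06% and 3.07% of all tested genes. At an unadjusted p under 0.05, 6 of 12 passed, beside 19.5% of all tested genes. In 11 of the 12 the difference was below 0, where 51.9% of all tested genes were above 0, and the median was -0.14. In 6 of 12 the groups did not overlap, all of them lower, beside 25.6% of all tested genes without overlap in either direction. Among them, SEC61A1 and SEC62 (chromosome 3), TRAM1 (chromosome 8) and SSR1 (chromosome 6) had log2 differences of -0.16, -0.14, -0.17 and -0.13. Their limma adjusted p values were 0.204, 0.231, 0.108 and 0.28. The ribosome-binding protein RRBP1 was at 59.0, 67.3 and 68.0 FPKM in shNT and at 44.1, 43.9 and 46.3 in shGPR81, a log2 difference of -0.53 (SE 0.07, adjusted p = 0.00519). The oligosaccharyltransferase subunit RPN2 was at 206, 223 and 220 FPKM in shNT and at 170, 167 and 167 in shGPR81, a log2 difference of -0.37 (SE 0.05, adjusted p = 0.00663). Both genes lie on chromosome 20, where the median of the 388 tested genes was -0.39 and 9.02% were above 0. With the median of each chromosome subtracted, RRBP1 had a difference of -0.12 (adjusted p = 0.262) and RPN2 one of 0.05 (adjusted p = 0.58). SEC61B, a subunit of the protein-conducting channel and the other of the highest pair in the list, was at 194 ± 11.5 and 193 ± 6.80 FPKM (SD, n = 3 each). The reticulon chromosomes had medians near that of all genes, namely 0.014 for chromosome 2, 0.029 for 11, -0.00038 for 14 and 0.038 for 19.

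**Figure D3:**
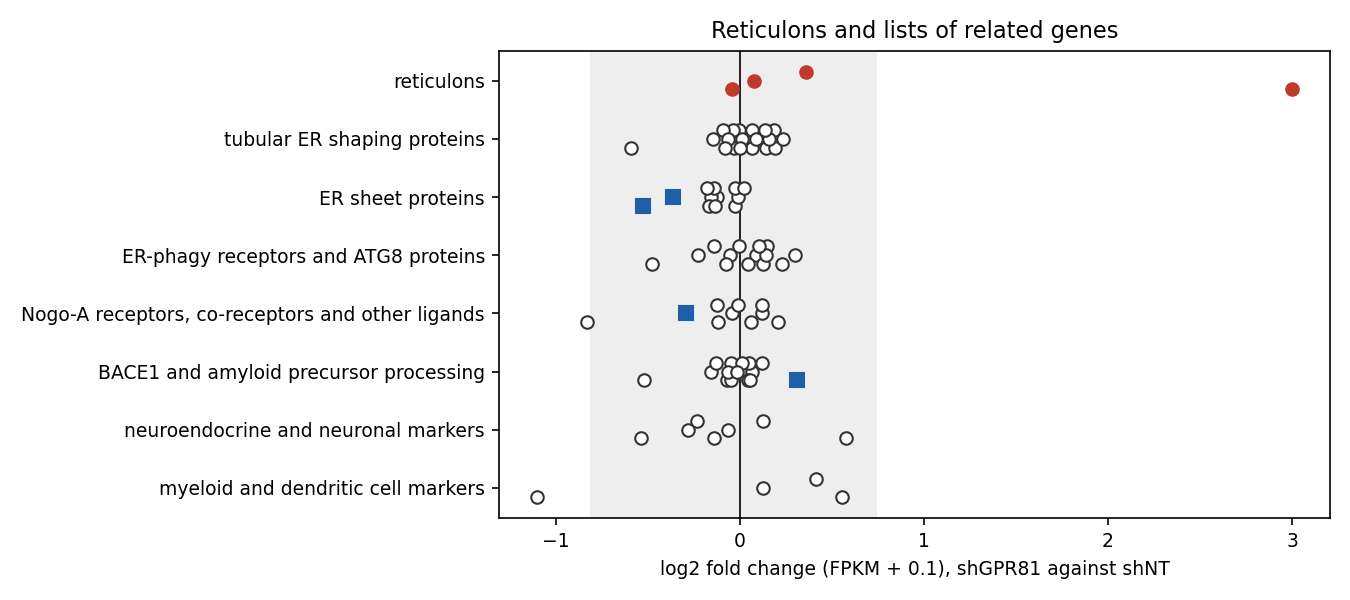
Log2 fold change (FPKM + 0.1), shGPR81 against shNT, of the 4 reticulons (red) and of the tested genes of 7 related lists. Each point is a gene, filled squares are genes with a limma adjusted p under 0.05, the grey band holds the central 95% of all tested genes (-0.81 to 0.74), and points are offset vertically only for legibility. RTN1 lies far outside the band, while most list genes lie near 0.

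RTN3 acts beside other ER-phagy receptors, which tether ER fragments to ATG8 proteins on the autophagosome. Of 15 genes in this list 14 were tested, and 0 passed an adjusted p under 0.05 (limma) in either direction. Of all tested genes, 2.06% passed it higher and 3.07% lower. At an unadjusted p under 0.05, 5 of 14 passed, beside 19.5% of all tested genes. Of these, FAM134C and SEC62 were lower in shGPR81 cells, and ATL3, CALCOCO1 and GABARAPL1 were higher. SEC62 is counted in the sheet list too, and ATL3 in the tubular list. The median log2 difference of the list was 0.07. GABARAP and GABARAPL2, the ATG8 proteins with the highest levels, were at 269 ± 22 and 277 ± 11.9 FPKM and at 56.4 ± 5.78 and 60.4 ± 1.25 FPKM (SD, n = 3 each). The receptors FAM134B, FAM134A and FAM134C had log2 differences of 0.09, 0.15 and -0.23 with adjusted p values of 0.737, 0.385 and 0.149. The receptor TEX264, at 42.4 ± 5.08 and 46.1 ± 1.04 FPKM, had a difference of 0.13 (adjusted p = 0.481).

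RTN4 as Nogo is a ligand. Its receptor RTN4R was at 2.12, 1.74 and 2.28 FPKM in shNT and at 1.62, 1.80 and 2.60 in shGPR81, from 50, 42, 54, 41, 45 and 65 reads, a depth-corrected ratio of 0.982 (exact 95% interval 0.777 to 1.24). Its relative RTN4RL2, which binds other myelin inhibitors, was at 1.51, 2.36 and 2.66 FPKM in shNT and at 1.28, 1.19 and 0.987 in shGPR81, a log2 difference of -0.83 (SE 0.22, limma adjusted p = 0.0802). Its groups did not overlap, and the adjusted p was 0.0115 without shNT replicate 1. Its reads were 42, 67 and 74 against 38, 35 and 29. RTN4RL1 had from 1 to 5 reads per library, and the co-receptor LINGO1 and the myelin ligand MAG were listed at 0 in every library.

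Of the 17 genes of the Nogo list 10 were tested, with a median log2 difference of -0.03. At an adjusted p under 0.05 (limma), 0 passed higher and 1 passed lower, beside 2.06% and 3.07% of all tested genes, and at an unadjusted p under 0.05 3 of 10 passed, beside 19.5%. The gene that passed lower was the proteoglycan SDC4 (-0.29, adjusted p = 0.0476). SDC4 is on chromosome 20, and its difference was 0.12 (adjusted p = 0.248) with the median of each chromosome subtracted. Without any 1 library other than shNT replicate 1, its adjusted p was 0.0799 to 0.19. The Nogo-B receptor NUS1 was at 21.3 ± 1.05 and 19.6 ± 0.418 FPKM (SD, n = 3 each, adjusted p = 0.326). The co-receptor NGFR was at 16.2 ± 2.39 and 16.0 ± 1.83 FPKM (SD, n = 3 each), and TSPAN3, a membrane protein that acts with Nogo, was the second in level of the list at 32.3 ± 0.535 and 35.1 ± 0.719 FPKM with a log2 difference of 0.12 (adjusted p = 0.208).

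Reticulons bind BACE1, the beta-secretase that makes the first of the cleavages of the amyloid precursor protein (APP). BACE1 was at 14.6, 15.1 and 14.2 FPKM in shNT and at 18.8, 17.9 and 17.7 in shGPR81, without overlap and with a log2 difference of 0.31 (SE 0.06, limma adjusted p = 0.0253), below a fold change of 1.5. Without any 1 library other than shNT replicate 1, its adjusted p rose to 0.0719 to 0.123. It was the only one of the 16 genes of this list that passed, in either direction, where 2.06% of all tested genes passed higher and 3.07% lower. The median log2 difference of the list was -0.0036. The substrates highest in level, APLP2 and APP, were at 409 ± 5.89 and 445 ± 8.38 FPKM and at 197 ± 2.51 and 206 ± 4.02 FPKM (SD, n = 3 each). Neither passed, with adjusted p values of 0.201 and 0.486.

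No neighbour of RTN1 on chromosome 14 was called in either direction. Of all tested genes, 0.955% were called higher and 1.59% lower. On the adjusted p alone 2.06% passed higher and 3.07% lower, and 19.5% passed an unadjusted p under 0.05. Within 1 Mb of RTN1 there were 18 other symbols, of which 12 were tested, 0 were called, 1 passed an adjusted p under 0.05 (limma) and 3 an unadjusted one. That gene, the dehydrogenase DHRS7, was at 22, 20.1 and 21.7 FPKM in shNT and at 25.1, 26.1 and 27.0 in shGPR81, a log2 difference of 0.29 (SE 0.06, adjusted p = 0.0348, and 0.0682 to 0.138 without any 1 library other than shNT replicate 1). The nearest tested gene, CCDC175, ends 19.2 kb from RTN1 and had a log2 difference of -0.22 (adjusted p = 0.779). The others reported were JKAMP (0.06), L3HYPDH (0.43), GPR135 (0.53), DAAM1 (0.01), PCNXL4 (0.00), PPM1A (0.17), SIX4 (0.25), MNAT1 (-0.01) and the low RNA SALRNA1 (1.12, adjusted p = 0.293), all as log2 differences. On the other side of RTN1 the nearest symbol, LRRC9, was listed at 0 in every library, and so was MIR5586, a microRNA gene within the span of RTN1.

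**Figure D4:**
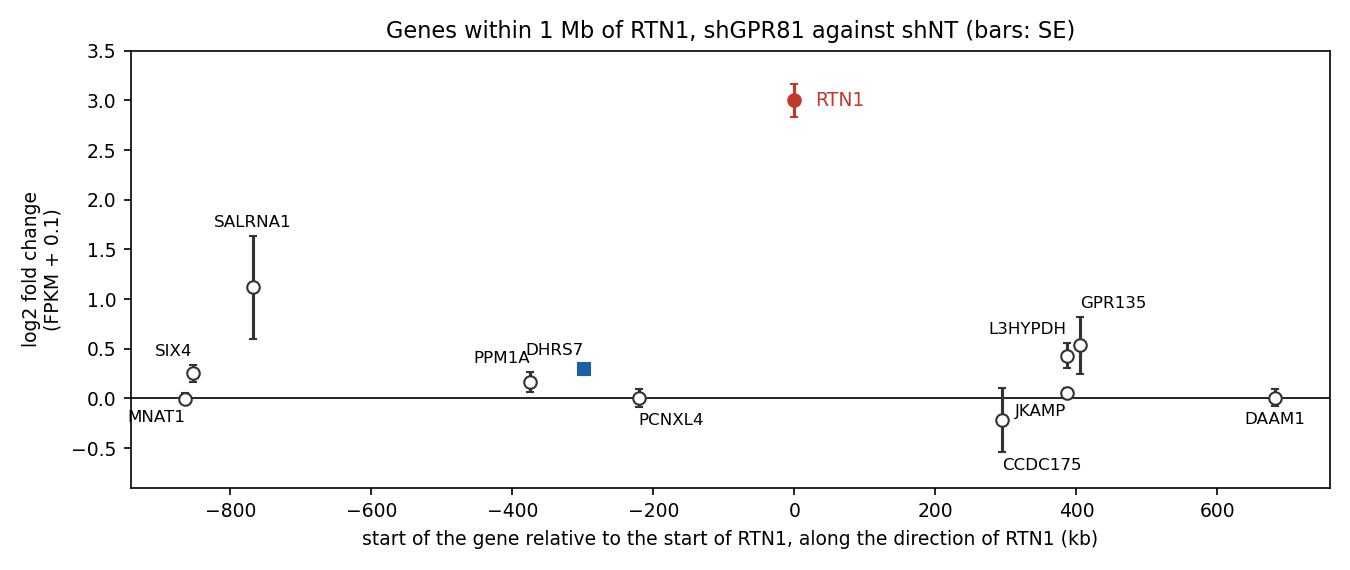
Log2 fold change (FPKM + 0.1) of RTN1 (red) and of 11 of the 12 tested genes within 1 Mb of it, against the distance of each gene's start from the start of RTN1 along the direction of RTN1, in kb. Bars are SE, hidden by the marker where small, and the filled square is DHRS7, the neighbour with a limma adjusted p under 0.05. RTN1 stands at 3.0 and the neighbours shown between -0.22 and 1.12.

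The neighbours of the other reticulons were called at about the share of all tested genes, 0.955% higher and 1.59% lower. Of 44 tested genes within 1 Mb of RTN2, 1 was called, CEACAM19 (log2 difference 1.29, adjusted p = 0.0294 by limma, under 1 FPKM in every library, and an adjusted p of 0.0605 to 0.126 without any 1 library other than shNT replicate 1). On the adjusted p alone, the microtubule-associated protein EML2 (0.41, adjusted p = 0.0245) and the NF-kappaB cofactor BCL3 (-0.58, adjusted p = 0.0168) also passed there. The adjusted p of EML2 was 0.0696 to 0.0906 without shNT replicate 2 or 3 or shGPR81 replicate 1 or 3, and that of BCL3 0.0522 to 0.0869 without shNT replicate 2 or any shGPR81 library. Of 44 near RTN3, 1 was called, the integrin activator FERMT3 (2.07, adjusted p = 0.00519). FERMT3 was a low gene, at 0.124, 0.121 and 0.062 FPKM in shNT and at 0.929, 0.588 and 0.733 in shGPR81. Its log2 difference was 0.66 with a pseudocount of 1 and 2.79 with 0.01. Of 12 near RTN4, 0 were called, and the matrix protein EFEMP1 passed on the adjusted p alone (-0.56, adjusted p = 0.00289). PPM1N, which overlaps RTN2 on the opposite strand, was at 0.144, 0.0939 and 0.288 FPKM in shNT and at 0.539, 0.364 and 0.227 in shGPR81, groups that overlap, at levels far below those of RTN2. The libraries were made with a stranded kit, but the counting of strands behind the FPKM is not given in the sources used here.

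The genes whose pattern over the 6 libraries was most like that of RTN1 are named by Pearson's r of log2(FPKM + 0.1), among 11676 genes whose mean reached 1 FPKM. They were EMP1 (r = 0.999), an epithelial membrane protein, SNORA9 (0.999), the potassium channel KCNK1 (0.998), the glutamine synthetase gene GLUL (0.998) and RGMB (0.997), a co-receptor for bone morphogenetic proteins. All 5 were higher in every shGPR81 library than in every shNT library, and the 6 points share the same 2 groups, so the values mainly restate that separation. The sizes differed: EMP1 went from 128 to 130 FPKM in shNT to 172 to 176 in shGPR81, a log2 difference of 0.43, whereas GLUL went from 5.83 to 6.19 to 11.6 to 12.3, a difference of 1.0.

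GPR81 signals by lowering cyclic AMP, whose transcription factor CREB binds the DNA word TGACGTCA, the cAMP response element. RefSeq gives 14 start windows for the reticulons, 3 of them for RTN1, each from 250 bases before to 50 bases after a start. They were searched on both strands for this word, for its first 5 letters TGACG, for the GC box GGGCGG and for the TATA word TATAAA. The full word was in 0 of the 14 windows and in 1.85% of all 35116 windows of the same length. TGACG, found in 24.6% of all windows, was in both RTN1 windows near annotated starts, at position -200 from the long start and -210 from the short one, and in RTN4 windows at -40, -14 and 14 from a start (minus marks bases before it). The remaining RTN1 window, the RTN2 and RTN3 windows and most RTN4 windows did not hold it. The 250 bases before the start of the long form, RTN1-201, are shown because RTN1 is the member that differed most, with the TGACG match in capitals, on the gene's strand (minus), chr14:60337495-60337744 of GRCh37.
RTN1-201 upstream: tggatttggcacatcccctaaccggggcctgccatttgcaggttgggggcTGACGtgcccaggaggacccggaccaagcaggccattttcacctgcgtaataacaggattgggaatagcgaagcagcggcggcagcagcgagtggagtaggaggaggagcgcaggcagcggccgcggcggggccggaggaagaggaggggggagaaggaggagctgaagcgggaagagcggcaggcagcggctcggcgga
The whole window at this start, including the 50 bases after it that are not shown, was 66.7% G and C with 25 CpG pairs. The window at the short start was 74.7% G and C with 41 CpG pairs and a GC box at -34. The third RTN1 window, 2532 bases from the nearest annotated start, was 44% G and C with 1 CpG pair and a TATA match 19 bases past the start. GC boxes, found in 45.0% of all windows, occurred 8 times in the RTN2 window at RTN2-201 and 2 times in that of RTN3, and from 1 to 3 times in 4 of the 8 RTN4 windows. TATA matches were in 11.5% of all windows. These are matches of letters, not measured binding, and gene-level FPKM does not show which start of RTN1 was used.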

How the data were processed

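RNA of 3 shNT and 3 shGPR81 libraries of MDA-MB-231 cells was read as single-end reads of 75 bases. The authors deposited 1 FPKM value per gene symbol and library. The submitters' processing notes name TopHat2 2.0.13, Bowtie2 2.2.3, SAMtools 0.1.19 and Cuffnorm 2.2.1 and a mouse build, while the study's methods state the human build hg19, which is the same as GRCh37 and was used here. The annotation behind the FPKM is not given in the sources used here. FPKM totals were 876963 to 1003520 per library, 28.1% to 36.2% of it in MIR6723, and FPKM does not carry read depth.

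The study analysed read counts. As the table holds FPKM, log2(FPKM + 0.1) was tested with limma 3.58.1 (lmFit, eBayes with trend, R 4.3.3) without a block. Tested were the 14349 genes that reached 0.1 FPKM in 3 or more libraries, with Benjamini-Hochberg adjustment over all of them. Called genes had an adjusted p below 0.05 and a change of over 1.5-fold, as the study set its limits. RTN2, RTN3 and RTN4 were also put to an exact permutation test (two-sided). The fit and the read steps were tested on simulated data. Replicate libraries differed by more than counting noise, which does not tell separate cultures from repeated libraries of 1 culture. Loci and transcripts were read from GENCODE release 44 in its GRCh37 version, and start windows are from RefSeq (GRCh38), each matched exactly to GRCh37. Protein sequences were not used here, and 1 neighbour of RTN1 is counted but its value is not reported here.

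The members and lists were chosen with earlier results of these data known. Named genes are the 4 reticulons, HCAR1, called genes and the pair of highest mean level in each list, detected receptors and ER shaping genes, tested neighbours of RTN1, the 5 genes most like RTN1, and the genes beside it in the order of rises. Others named (RTN2 to RTN4 neighbours, PPM1N, the 5th and 6th rises, GABARAPL1, and markers given by value) were chosen after their values were seen. Alternatives were a replicate block, each library left out, other filters, pseudocounts and scalings, limma's treat and, added after the data were seen, centring by chromosome.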

Additional observations from a re-analysis of the deposited data

How the results depend on the processing

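RTN2, RTN3 and RTN4 stayed on their side of the threshold in all 15 alternatives, with log2 differences of 0.26 to 0.44, -0.069 to 0.0042 and 0.06 to 0.10. RTN3 reversed to 0.0042 without shNT replicate 3. RTN1, given without a test, was 1.33 with a pseudocount of 1 and 3.58 with 0.01, as the added constant is large beside its shNT level, and 2.94 to 3.05 with each library left out. Genes called lower and higher, 228 and 137, became 142 and 75 with a pseudocount of 1 and 46 and 9 under treat, and ranged from 121 to 256 and from 65 to 152 with each library left out. RPN2 and SDC4 reversed to 0.048 and 0.12 when centred by chromosome. BACE1 lost its adjusted p under 0.05 in 8 of 15 alternatives, DHRS7 in 7, EML2 in 6 and BCL3 in 5. TGFBI lost it in 4, RRBP1 in 2 and EFEMP1 in 1. SDC4 lost it in 10 and RPN2 in 1 besides centring by chromosome, where both also lost it (limma adjusted p = 0.248 and 0.58). CEACAM19 lost it in 7 of 14 and FERMT3 in 1 of 14, and RTN4RL2 gained it in 1 of 15. With a library left out, fewer remained to estimate the spread. The causes of the losses and of the gain were not tested.

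Libraries with the same replicate number did not deviate together (correlations across genes of 0.12, 0.0223 and 0.00577), so the numbers do not pair them. With a replicate block, 197 genes were called lower and 115 higher, RTN1 was 3.0, and the adjusted p of RTN2, RTN3 and RTN4 was 0.0878, 0.642 and 0.354, and that of BACE1 0.0507. RTN1 rests on about 3 to 6 estimated reads per shNT library.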
